A study of Mus musculus with 8 samples.

Results

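Ligands of the tumour necrosis factor (TNF) superfamily were examined in stimulated mouse regulatory T cells labelled as Bcl6-deficient (KO) and in wild-type (WT) regulatory T cells. The 10 ligand genes were Tnfsf10 (which encodes TRAIL), Fasl, Tnf, Lta, Ltb, Tnfsf4, Tnfsf8, Tnfsf11, Tnfsf14 and Cd40lg. Each was read from the probe set that the platform annotates to that symbol alone, and each of the 10 had a single such probe set. They are 10 of 19937 genes tested. Tnfsf10 was the only ligand gene that passed limma's moderated test between KO-labelled and WT arrays, with a level 2.25 log2 higher (adjusted p = 0.0499). That call was lost under 10 of 27 alternatives. As deposited, the Tnfsf10 excess in KO preparation 1 was 2.04 times that in KO preparation 2 on the log2 scale. The difference between the KO preparations ran from 0.81 to 1.82 log2 over 15 alternatives.

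The cells were FoxP3-positive Tregs (regulatory T cells), a CD4 lineage that holds other lymphocytes in check. They were sorted from KO-labelled mice, whose genotype is given as a Bcl6 knock-out, and from WT mice. All cells of both groups received antibodies to CD3 and CD28 for 16 h before RNA was extracted, so unstimulated levels are not part of the comparison, and 100 ng of total RNA was labelled per Affymetrix array. There were 4 KO-labelled and 4 WT arrays, in each group a preparation 1 and a preparation 2 with arrays A and B. The labels do not give the knock-out allele, the strain, the age, or whether preparations and letters are separate mice, cultures or extracts. The p-values therefore reflect nothing beyond the variation among these samples, and that variation may be technical.

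TNF superfamily ligands are mostly membrane proteins that assemble as trimers, and proteases release several of them as soluble forms. They act through receptors of the TNF receptor superfamily. Receptors with a death domain, such as Fas and the TRAIL receptor Tnfrsf10b, can recruit Fadd and caspase 8 and start apoptosis. Other receptors recruit TRAF adaptors and activate NF-kB. TRAIL and Fas ligand are known for killing target cells, lymphotoxins for the formation of lymphoid organs, and OX40L, CD30L, LIGHT and CD40L for costimulation between lymphocytes and antigen-presenting cells. Bcl6 is a BTB zinc finger protein that represses transcription.

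The labels and the arrays did not match in every respect. Bcl6 itself, the gene labelled as deleted, read at least 8.51 log2 on every KO-labelled array and 7.86 to 8.36 log2 on the WT arrays, a difference of 0.59 log2 (adjusted p = 0.701); where its probes lie relative to the deletion is not given. The group is therefore called KO-labelled. The mean of 3 Y-linked genes was 4.62 to 4.80 log2 on the KO-labelled arrays and 6.94 to 8.30 log2 on the WT arrays, so whatever differs with these genes cannot be told apart from the labelled genotype. Within an array, the log2 values of all probe sets had an SD of 1.84 and 1.87 on KO 1 arrays, 1.61 and 1.65 on KO 2 arrays and 1.56 to 1.7 on WT arrays. The 7 measured Treg markers lay at 8.96 to 12.13 log2 on every array. All 7 differences were above 0, with a median of 0.55, and 0 of 7 were called. Over all genes, 8616 of 19937 differences were above 0, with a median of -0.063, and 0.135% were called. Of 25 measured markers of B cells, myeloid cells, and NK and CD8 T cells, 0 were called, which that share gives and which does not show equal purity. In KO 1 against WT, 5 of 7 B cell markers were called lower and 1 higher. Of 10 myeloid markers 4 were lower and 2 higher, and of 8 NK and CD8 T cell markers 3 were lower and 0 higher. Of all genes 70.5% were called in KO 1, with 7776 of 19937 lower and 6272 higher. These marker counts are as deposited and were not repeated under other scalings. Between KO-labelled and WT arrays, the B cell marker median was -0.21 log2 as deposited. It was -0.088 log2 after quantile normalization, -0.105 log2 after median centring and 0.075 log2 with array SD as a covariate. The part of the array spread in the marker counts was not tested. In sorted bulk cells, fewer cells of a type and less RNA per cell cannot be told apart.

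Tnfsf10 was the ligand gene that differed most between the groups, and Fasl, a ligand with a related role, had nearly no difference as deposited. The upstream sequences of these genes are shown for comparison. Both are the 250 bases before the annotated gene start in RefSeq, build GRCm38.p6. The Tnfsf10 window is chr3:27316827-27317076 on the plus strand, and the Fasl window is chr1:161788496-161788745 on the minus strand. Capitals mark GGAAA or its reverse complement TTTCC, the core that NFAT and other Rel-homology factors recognise.
Tnfsf10: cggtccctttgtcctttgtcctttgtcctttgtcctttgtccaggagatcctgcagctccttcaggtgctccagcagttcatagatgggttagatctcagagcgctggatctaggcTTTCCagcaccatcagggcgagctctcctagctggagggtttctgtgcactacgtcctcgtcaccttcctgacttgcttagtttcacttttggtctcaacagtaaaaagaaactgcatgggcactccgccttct
Fasl: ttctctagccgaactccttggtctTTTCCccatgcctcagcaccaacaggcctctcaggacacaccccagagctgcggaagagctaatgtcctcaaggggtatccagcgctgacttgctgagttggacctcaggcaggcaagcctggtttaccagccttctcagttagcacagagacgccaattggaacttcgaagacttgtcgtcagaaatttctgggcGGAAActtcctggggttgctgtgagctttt

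Of the 10 ligand genes, 8 had such a window, and all 8 held GGAAA, as did 55.6% of all 32851 windows. In the Tnfsf10 window it occurred 1 time and in the Fasl window 2 times. None of the other 7 motifs searched, each on both strands, was in either of these windows. The STAT-type motif TTCNNNGAA, present in 7.02% of windows, was found for Ltb and Lta. TTCCTNGAA, a BCL6-type motif contained in it, was in 1.31% of windows and in no ligand window, and an interferon-stimulated response element core was in 2.98% and in no ligand window. An NF-kB type motif, which contains TTTCC, was in 1.41% of windows and upstream of Ltb. The AP-1 site TGACTCA, in 4.46% of windows, was found for Tnfsf14. The forkhead core TAAACA, in 12.03% of windows, was found for Ltb. The TATA sequence TATAAA, in 12.37% of windows, was found for Tnf, Lta and Tnfsf11. These are matches of letters in a short window only.

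The first question was which ligand genes differ between KO-labelled and WT Tregs. Tnfsf10 had levels of 9.92, 9.84, 8.44 and 8.24 log2 on KO 1A, KO 1B, KO 2A and KO 2B, against 6.64, 7.02, 6.82 and 6.98 log2 on WT 1A, WT 1B, WT 2A and WT 2B. All 4 KO-labelled arrays lay above all 4 WT arrays, and the lowest KO-labelled array stood 1.22 log2 above the highest WT array. The means were 9.11 ± 0.89 log2 in KO-labelled arrays and 6.87 ± 0.17 log2 in WT arrays (SD, n = 4 each), a difference of 2.25 log2 (SE 0.39, 95% confidence interval 1.40 to 3.09) or 4.74-fold. This difference passed limma's moderated test with a Benjamini-Hochberg adjusted p of 0.0499 over all genes, just under the threshold of 0.05. Among all genes 0.135% were called in either direction and 0.12% were called higher, against 1 of the 10 ligand genes. By size it was number 11 of the 24 genes called higher, and by p it was the last of the 27 genes called.

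The call depended on single arrays and on the model, while the direction did not. The difference was above 0 under all 27 alternatives and ranged from 1.44 to 3.02 log2. It was called under 17 of them and lost under 10. Leaving out KO 1A gave an adjusted p of 0.0654, KO 1B 0.132, KO 2A 0.077, WT 2A 0.135 and WT 2B 0.0981. Without WT preparation 1 the adjusted p was 0.211, and without WT preparation 2 it was 0.999. Centring each array on its median gave 0.196, no variance trend 0.0915 and a block for letters 0.095. With array SD as a covariate the difference was 1.44 log2 (SE 0.12, adjusted p = 6.05e-06); the correlation within preparations was then estimated at -0.367, a negative value that shrinks the SE. After quantile normalization the difference was 2.17 log2 (adjusted p = 0.00987).

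**Figure D1:**
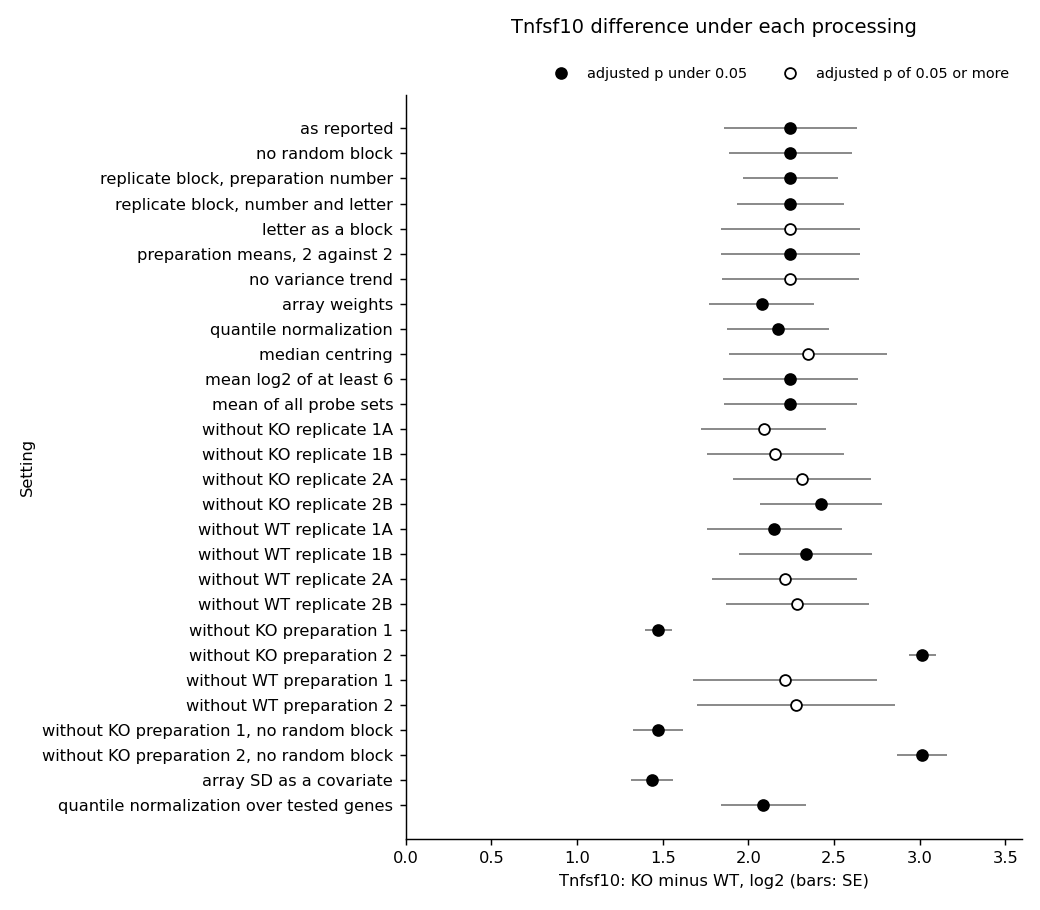
Log2 difference of Tnfsf10, KO-labelled minus WT (horizontal axis), as reported and under 27 alternatives (vertical axis). Points are fitted differences, bars their SE, filled points have an adjusted p under 0.05; every point lies between 1.44 and 3.02, and 10 alternatives are open.

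The other 9 ligand genes did not pass the test, with adjusted p-values of 0.701 to 0.993, and in each the KO-labelled and WT arrays overlapped. No overlap, as for Tnfsf10, was found for 8.78% of all genes and with KO-labelled arrays higher for 6.67%. Fitted differences of the 9 genes ran from -0.29 to 0.21 log2. Of all 19937 genes, 8616 had a difference above 0, with a median of -0.063. Over the 10 ligand genes 6 differences were above 0 and 4 below, with a median of 0.022. After quantile normalization 3 were above 0 and 7 below, and after median centring 6 and 4.

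**Figure D2:**
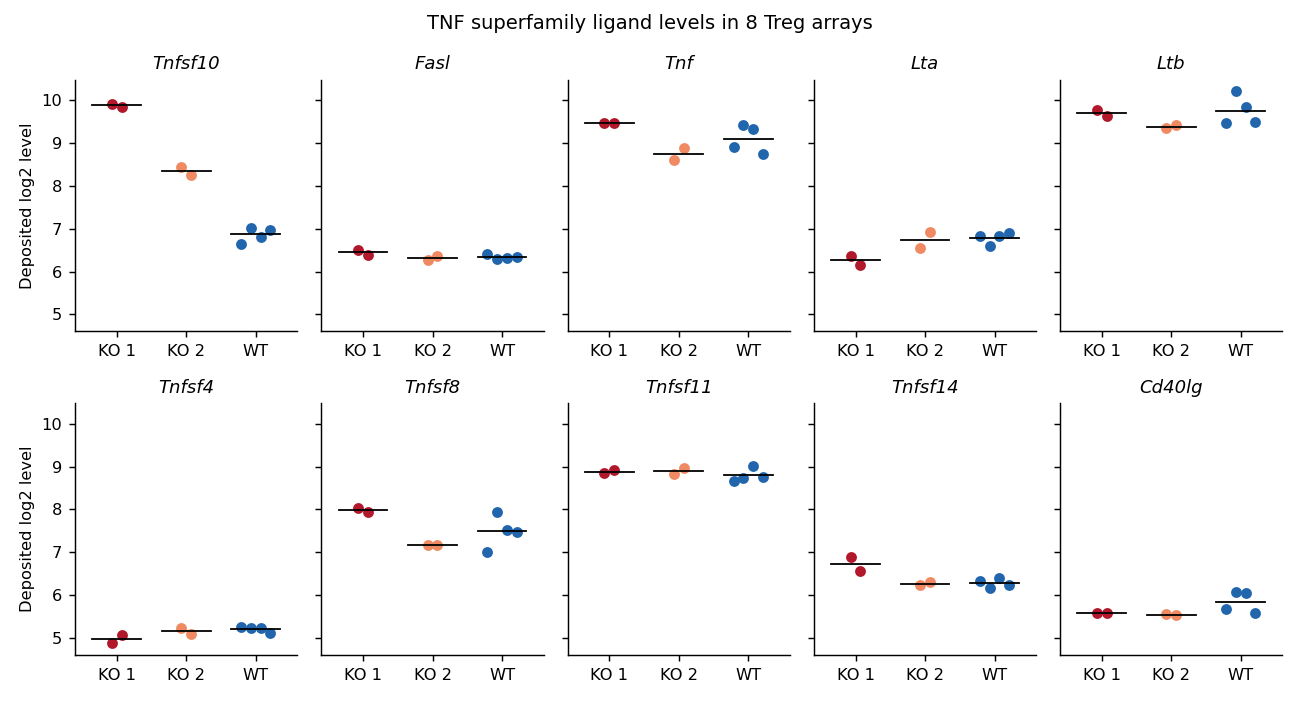
Deposited log2 levels (vertical axis) of the 10 ligand genes on KO 1, KO 2 and WT arrays; points are arrays and lines are means of each set. Tnfsf10 lies at 8.24 to 9.92 on KO-labelled arrays and at 6.64 to 7.02 on WT arrays, while KO-labelled arrays as a whole overlap with WT arrays for the other 9 genes.

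Fasl, the second death-inducing ligand, showed almost the same level everywhere as deposited. It read 6.51, 6.39, 6.26 and 6.37 log2 on KO 1A, KO 1B, KO 2A and KO 2B, against 6.41, 6.30, 6.32 and 6.33 log2 on WT 1A, WT 1B, WT 2A and WT 2B. The highest and the lowest of the 8 values were both on KO-labelled arrays, which enclosed the WT values. The difference was 0.039 log2, with a 95% confidence interval of -0.34 to 0.42. After quantile normalization the difference was 0.18 log2 (adjusted p = 0.585), and Fasl was then called higher in KO 1, as given below.

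Tnf, Lta and Ltb, which encode TNF and the lymphotoxin chains, lie next to each other on mouse chromosome 17 in the order Ltb, Tnf, Lta in RefSeq. Tnfsf14 is also on chromosome 17, Fasl and Tnfsf4 are on chromosome 1 with Tnfsf18 between them, Tnfsf10 is on chromosome 3, Tnfsf8 on 4, Tnfsf11 on 14 and Cd40lg on X. Tnf, the founding inflammatory cytokine of the family, read 9.47, 9.46, 8.60 and 8.89 log2 on KO 1A, KO 1B, KO 2A and KO 2B, against 8.91, 9.43, 9.31 and 8.75 log2 on WT 1A, WT 1B, WT 2A and WT 2B. The KO 1 arrays were highest and KO 2A was lowest of all 8, so that the means were 9.11 ± 0.43 log2 in KO-labelled and 9.10 ± 0.32 log2 in WT arrays (SD, n = 4 each). The difference of 0.0052 log2 had an interval of -0.76 to 0.77.

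Lta, whose product forms a secreted trimer or joins lymphotoxin beta at the membrane, read 6.37, 6.15, 6.56 and 6.92 log2 on KO 1A, KO 1B, KO 2A and KO 2B, against 6.83, 6.59, 6.83 and 6.90 log2 on WT 1A, WT 1B, WT 2A and WT 2B. Here KO 1 was below every WT array, while KO 2A lay just below and KO 2B just above the WT range. The difference of KO-labelled and WT means was -0.29 log2 (95% confidence interval -0.82 to 0.25). Ltb, which anchors lymphotoxin at the membrane, read 9.77, 9.62, 9.35 and 9.41 log2 on KO 1A, KO 1B, KO 2A and KO 2B, against 9.47, 10.21, 9.85 and 9.49 log2 on WT 1A, WT 1B, WT 2A and WT 2B. Only the KO 2 arrays lay below the WT range. Its difference was -0.21 log2 (95% confidence interval -0.95 to 0.52).

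Among the costimulatory ligands, Tnfsf4, which encodes OX40L, read 4.87, 5.08, 5.25 and 5.10 log2 on KO 1A, KO 1B, KO 2A and KO 2B, against 5.26, 5.23, 5.23 and 5.11 log2 on WT 1A, WT 1B, WT 2A and WT 2B, a difference of -0.13 log2. Its values spanned under 0.5 log2 over all 8 arrays. Cd40lg, the X-linked gene for the CD40 ligand of helper T cells, read 5.57, 5.59, 5.56 and 5.54 log2 on KO 1A, KO 1B, KO 2A and KO 2B, against 5.67, 6.07, 6.05 and 5.58 log2 on WT 1A, WT 1B, WT 2A and WT 2B. The KO-labelled arrays were tight, with an SD of 0.023 log2 against 0.25 log2 in WT, and sat at or just below the low end of the WT range. The difference was -0.28 log2 (95% confidence interval -0.76 to 0.21).

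Tnfsf8, which encodes CD30L, read 8.02, 7.95, 7.17 and 7.18 log2 on KO 1A, KO 1B, KO 2A and KO 2B, against 7.01, 7.93, 7.53 and 7.48 log2 on WT 1A, WT 1B, WT 2A and WT 2B. The WT arrays alone spanned 0.92 log2. Both KO 1 arrays lay just above that span and both KO 2 arrays in its lower part, with a difference of 0.095 log2 between KO-labelled and WT means. Tnfsf14, which encodes LIGHT, a ligand of Tnfrsf14 and of the lymphotoxin beta receptor, read 6.89, 6.56, 6.24 and 6.30 log2 on KO 1A, KO 1B, KO 2A and KO 2B, against 6.34, 6.16, 6.40 and 6.23 log2 on WT 1A, WT 1B, WT 2A and WT 2B. Both KO 1 arrays were above every WT array and both KO 2 arrays within the WT range. The difference was 0.21 log2 (95% confidence interval -0.27 to 0.69). Tnfsf11, which encodes RANKL, the ligand that drives osteoclast formation, read 8.84, 8.92, 8.83 and 8.97 log2 on KO 1A, KO 1B, KO 2A and KO 2B, against 8.67, 8.73, 9.02 and 8.76 log2 on WT 1A, WT 1B, WT 2A and WT 2B. It gave a difference of 0.096 log2, with all KO-labelled values inside the WT range.

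The second question was how the KO preparations compare when each is set against the same 4 WT arrays, which the comparisons share. The fit for this, and for KO 1 against KO 2, has no preparation block, and each KO side is a single preparation. Its SE and p-values measure the spread between arrays and cannot speak to variation between KO preparations. In KO 2, Tnfsf10 averaged 8.34 log2, against 6.87 log2 in WT, a difference of 1.47 log2 (SE 0.14, 95% confidence interval 1.17 to 1.78) or 2.78-fold, with an adjusted p of 8.06e-05. It was the only ligand gene called in KO 2, 1 of 10 against 1.11% of all genes, and number 29 by size of the 186 genes called higher. The other 9 differences in KO 2 lay between -0.37 log2 for Ltb and 0.11 log2 for Tnfsf11, with adjusted p-values of 0.704 or more.

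In KO 1, Tnfsf10 averaged 9.88 log2, a difference from WT of 3.02 log2 (SE 0.14, 95% confidence interval 2.71 to 3.32) or 8.09-fold, with an adjusted p of 1.27e-08. Of the ligand genes, 5 of 10 were called in KO 1, 3 higher and 2 lower, but so were 70.5% of all genes, so the count is not particular to the ligands. Without KO 1A the count was 2, without KO 1B 3 and without WT 1A 3. Tnfsf8 was 0.50 log2 higher (adjusted p = 0.0333) and Tnfsf14 0.44 log2 higher (adjusted p = 0.00843). Lta was 0.53 log2 lower in KO 1, a difference of -0.53 log2 (adjusted p = 0.00574). Tnfsf4 gave -0.23 log2 (adjusted p = 0.0352), but 0.0099 log2 after median centring.

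Scaling mattered for KO 1, whose arrays had the widest spread. The median difference of all genes from WT was -0.13 log2 as deposited, -0.00535 after quantile normalization and 0.11 after median centring. After quantile normalization Tnfsf10 at 2.72 log2 and Tnfsf14 at 0.71 log2 stayed called higher in KO 1, with adjusted p-values of 1.6e-06 and 0.000862. Tnfsf8, Lta and Tnfsf4 were then no longer called, with adjusted p-values of 0.218, 0.173 and 0.902. In their place Fasl was called higher at 0.42 log2 (adjusted p = 0.00563), and Ltb at -0.59 log2 (adjusted p = 0.00778) and Tnfsf11 at -0.41 log2 (adjusted p = 0.0307) were called lower. Tnfsf10 and Tnfsf14 are thus the ligand genes called in KO 1 as deposited and under both scalings, but without KO 1A the Tnfsf14 difference was 0.27 log2 and not called (adjusted p = 0.148).

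**Figure D3:**
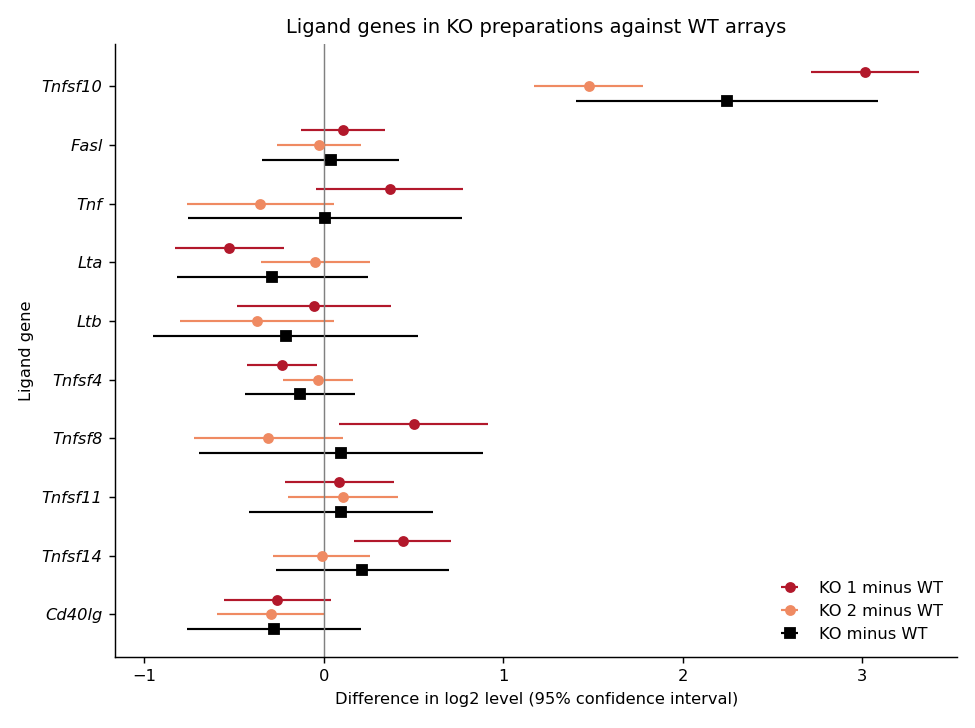
Log2 differences (horizontal axis) of the 10 ligand genes (vertical axis) for KO 1 minus WT, KO 2 minus WT and all KO-labelled minus WT arrays; bars are 95% confidence intervals. Only Tnfsf10 stands clear of 0 in all 3 comparisons, at 3.02, 1.47 and 2.25.

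Set directly against each other, KO 1 and KO 2 differed in 5 of the 10 ligand genes, against 63.1% of all genes. Without KO 1A the count was 1, without KO 1B 3, without KO 2A 3 and without KO 2B 2, and Tnfsf10 was called in each case. Tnfsf10 was 1.54 log2 higher in KO 1 (SE 0.16, adjusted p = 7.7e-05), a 2.91-fold difference, and 1.09 log2 higher after quantile normalization (adjusted p = 0.00296) or 0.81 log2 when that was run over the tested genes alone (adjusted p = 0.0155). Tnfsf8 was 0.81 log2 higher (adjusted p = 0.00899) and Tnfsf14 was 0.45 log2 higher (adjusted p = 0.018). Tnf was 0.72 log2 higher in KO 1 (adjusted p = 0.0139), but differed by 0.25 log2 after quantile normalization (adjusted p = 0.288) and by -0.0062 log2 when it was run over the tested genes alone. Lta was lower in KO 1, with -0.48 log2 (adjusted p = 0.0223), and -0.13 log2 after quantile normalization (adjusted p = 0.503). The spread of the arrays moved with these differences, and its part in them was not tested beyond these scalings.

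The receptors of these ligands gave no call between KO-labelled and WT arrays, 0 of 14 against 0.135% of all genes. Their median difference was -0.078 log2, and 5 were above 0 and 9 below, against 8616 above and 11321 below over all genes. Tnfrsf1b, the TNF receptor through which TNF supports Tregs, read 11.03, 10.93, 10.50 and 10.32 log2 on KO 1A, KO 1B, KO 2A and KO 2B, against 9.13, 9.69, 9.63 and 9.15 log2 on WT 1A, WT 1B, WT 2A and WT 2B. The groups did not overlap, and the difference was 1.30 log2 (adjusted p = 0.347). It was the only receptor called in KO 2, at 1.01 log2 (adjusted p = 0.0196), and after quantile normalization it was called between the groups as well.

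Tnfrsf4, the OX40 receptor, gave 1.07 log2 between KO-labelled and WT arrays (adjusted p = 0.679). Tnfrsf8, the CD30 receptor, read 9.26, 8.91, 7.11 and 7.37 log2 on KO 1A, KO 1B, KO 2A and KO 2B, against 7.35, 7.08, 7.17 and 7.15 log2 on WT 1A, WT 1B, WT 2A and WT 2B. Its level in KO 1 stood apart from all other arrays, at 1.90 log2 above WT (adjusted p = 6.9e-07), while KO 2 differed by 0.052 log2. Tnfrsf26, a mouse receptor of the family, gave -0.72 log2 between the groups (adjusted p = 0.701), with every KO-labelled array below every WT array, and was called lower after quantile normalization at -0.86 log2 (adjusted p = 0.0387). The mouse TRAIL death receptor gene Tnfrsf10b gave 0.32 log2 (adjusted p = 0.701), and Tnfrsf22 and Tnfrsf23, mouse decoy receptors for TRAIL, gave -0.012 and 0.013 log2. Fas, the receptor of Fas ligand, gave -0.21 log2 (adjusted p = 0.722).

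Genes of death domain signalling were measured for 9 of 12 list members. All 9 differences between KO-labelled and WT arrays were above 0, with a median of 0.58 log2, and 0 of 9 were called. Over all genes 8616 of 19937 differences were above 0 and 0.135% were called. Mlkl, the executioner of necroptosis, read 8.27, 7.98, 7.47 and 7.02 log2 on KO 1A, KO 1B, KO 2A and KO 2B, against 6.47, 6.25, 6.33 and 6.23 log2 on WT 1A, WT 1B, WT 2A and WT 2B, without overlap. Its difference was 1.37 log2 (adjusted p = 0.181), and in KO 2 it was called at 0.92 log2 (adjusted p = 0.00724). Ripk3, the kinase that activates Mlkl, gave 1.30 log2 (adjusted p = 0.465), Cflar, the inhibitor of caspase 8 at the receptor, 0.77 log2 and Casp8 itself 0.71 log2, both with an adjusted p of 0.701. In KO 1 all 9 were called higher, against 31.5% of all genes. In KO 2 1 of 9 was called higher, against 186 of 19937 genes. Both counts are as deposited and were not repeated under other scalings. After quantile normalization Mlkl was called higher between KO-labelled and WT arrays (adjusted p = 0.0387). With array SD as a covariate, 7 of 9 were above 0 with a median of 0.11 log2, and Mlkl and Ripk3 were called higher under the negative correlation given above.

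**Figure D4:**
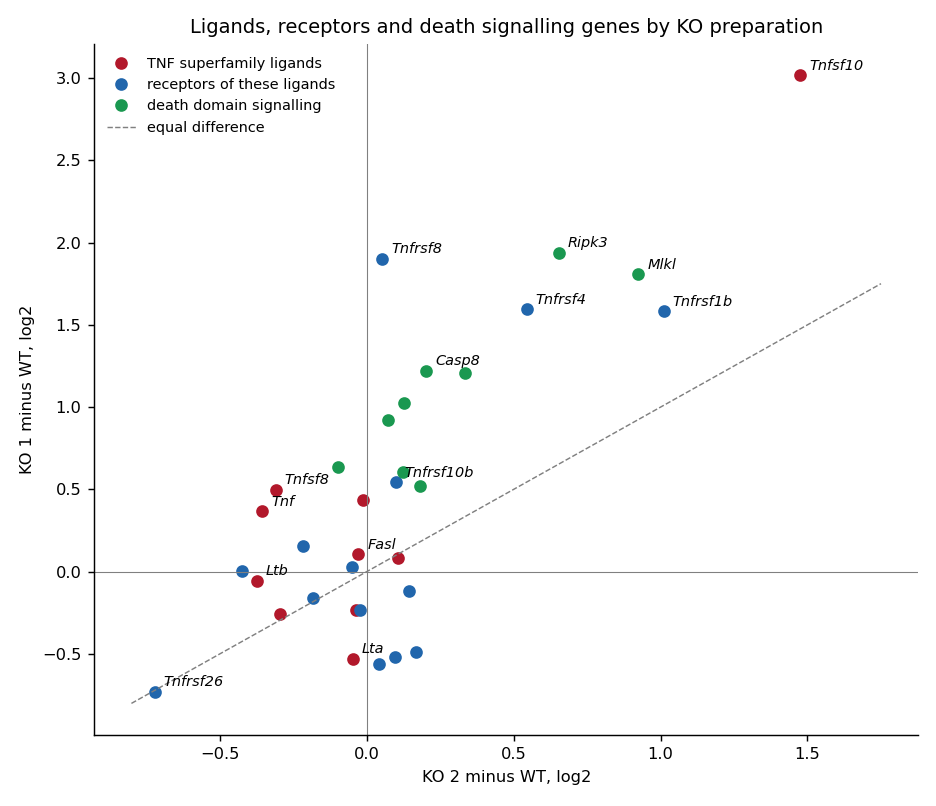
Log2 difference from WT in KO 2 (horizontal axis) and KO 1 (vertical axis) for the ligand genes, their receptors and death domain signalling genes; each point is a gene and the dashed line marks equal differences. Tnfsf10 lies farthest out at 1.47 and 3.02, and most death domain signalling genes lie near 0 in KO 2 and above 0.5 in KO 1.

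Genes of ligand shedding and processing, which include proteases, the inactive rhomboids Rhbdf1 and Rhbdf2 and the metalloproteinase inhibitor Timp3, gave 6 of 9 differences above 0 and 0 calls. Sppl2a, which cleaves the membrane stub of TNF, gave 0.74 log2, Adam17, the TNF-converting enzyme, 0.68 log2, Adam10, which sheds Fas ligand, 0.65 log2, and the proprotein convertase Furin 0.57 log2, each with an adjusted p of 0.701. TRAF adaptors and cIAPs gave 7 of 9 above 0 and 0 calls, led by Tank at 1.15 log2 and Traf2 at 0.52 log2. Tank gave 1.97 log2 in KO 1 and 0.32 log2 in KO 2, and Traf2 gave 0.82 and 0.22 log2. Among TNF and NF-kB feedback targets 7 of 10 were above 0 and 0 were called. Their median was 0.28 log2 as deposited and 0.059 log2 after quantile normalization. For each of these lists the shares over all genes are 8616 of 19937 above 0 and 0.135% called. The absence of calls in such short lists is what that share gives. Nfkbia, the inhibitor that NF-kB induces, gave 0.86 log2 (adjusted p = 0.697), and Bcl3 gave 0.79 log2 (adjusted p = 0.701). These had the smallest p of their list. After quantile normalization 5 of 9 TRAF and cIAP genes, 6 of 10 feedback targets and 6 of 9 shedding genes were above 0, with 0 calls. With array SD as a covariate 3, 6 and 9 were above 0 in that order. Under its negative correlation 3 TRAF and cIAP genes were called lower. Of the feedback targets 2 were called lower and 1 higher, and 2 shedding genes were called higher. The count over all genes in that fit is given below.

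Tnfsf10 is known as a gene that interferons induce. Of 13 measured interferon response genes, 8 differences were above 0 and 5 below, with a median of 0.075 log2 and 0 calls. Among all genes 8616 of 19937 differences were above 0 and 0.135% were called. Usp18 gave 0.97 log2 (adjusted p = 0.465) and Irf9 0.68 log2 (adjusted p = 0.701). Of 9 measured T cell cytokine genes, 0 were called, and the largest difference was that of Il10, the suppressive cytokine of Tregs, at 2.77 log2 (adjusted p = 0.0676), which was called after quantile normalization (2.73 log2, adjusted p = 0.0259). Il10 was called in KO 1 at 3.95 log2 (adjusted p = 7.69e-10) and in KO 2 at 1.60 log2 (adjusted p = 1.86e-05). Of 6 further TNF superfamily ligands measured, 0 were called. These had differences of -0.39 log2 for Cd70, -0.29 log2 for Tnfsf13b, -0.27 log2 for Tnfsf18 and 0.24 log2 for Tnfsf9, each with an adjusted p of 0.701.

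The genes whose pattern over the 8 arrays was most like that of Tnfsf10 were found by the root mean square difference of log2 values after each gene's own mean was subtracted. Batf, an AP-1 family transcription factor, was closest at 0.147 log2, with levels of 10.66, 10.73, 9.12 and 9.16 log2 on KO 1A, KO 1B, KO 2A and KO 2B, against 7.66, 8.07, 7.95 and 7.77 log2 on WT 1A, WT 1B, WT 2A and WT 2B. Next came Glrx, a glutaredoxin, at 0.148 log2, Entpd1, the ectonucleotidase CD39, at 0.156 log2, Ints4, an Integrator complex subunit, at 0.166 log2 and Prdm1, the Blimp-1 gene, at 0.176 log2. These genes were picked for their likeness to Tnfsf10 on the same arrays, so their levels are given as a description. Of the other ligand genes, Tnfsf14 at 1.10 log2 and Tnfsf8 at 1.12 log2 were nearest, at ranks 5663 and 5919 among all genes.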

How the data were processed

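The deposited values are log2 expression summaries of 28768 probe sets on 8 arrays. The authors made them by RMA in Partek, as the submitters' processing notes list; tool versions are not given in the sources used. They were used without further normalization. The platform annotation gave 21771 probe sets 1 gene symbol, 1557 several and 5440 none. For the 999 genes with several probe sets the one with the highest mean was kept, leaving 19937 genes, with no filter on dim genes. The number of arrays limits the precision.

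The main comparison of KO-labelled with WT arrays used limma 3.58.1 and R 4.3.3 (lmFit, eBayes with a variance trend), with preparation as a random block (duplicateCorrelation, 0.617). The block assumes that arrays A and B of a preparation are alike, which held less for the WT than for the KO-labelled arrays. A second fit without a block held KO 1, KO 2 and all WT arrays as 3 groups. Calls are two-sided at a Benjamini-Hochberg adjusted p under 0.05 over all genes. Differences are in log2, intervals are 95%, and folds are powers of the difference. Both fits were also run on simulated data, drawn with the same spread on every array and, for the second fit, without a preparation effect. The real arrays differ in spread and between KO preparations, so the simulation cannot show how the fits behave on them. The ligand genes and all lists were chosen with earlier results of these data known, and list genes without a matching symbol were not analysed here.

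Named genes are the 10 ligands, up to 4 genes of a list with the smallest p, the 5 genes nearest to Tnfsf10 and Bcl6. Tnfrsf10b, Tnfrsf22, Tnfrsf23 and Fas were added as receptors of TRAIL and Fas ligand after values were seen. Marker lists are given as counts. Promoter windows and gene order came from RefSeq (GRCm38.p6); they were shown, and 8 motifs searched, after the values were seen. Quantile normalization was first run over the tested genes; after its values were seen it was rerun over all probe sets, and both are reported.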

Additional observations from a re-analysis of the deposited data

Results flagged for a closer look

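In 4 of 128 groups of 4 arrays (64 genes in each group) an array stood apart from the other arrays of its group by Dixon's test of the gap against the range; chance flags about 1 in 20 groups. Tnfsf4 was low on WT 2B, at 5.11 log2, with the other WT arrays at 5.23 to 5.26 log2. Tnfsf9, the 4-1BB ligand, was low on WT 1B, at 5.44 log2, with the others at 5.64 to 5.65 log2. Il10 was low on WT 2B, at 6.40 log2, with the others at 6.62 to 6.64 log2. Entpd1 was high on WT 1B, at 7.43 log2, with the others at 7.07 to 7.13 log2.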

How the results depend on the processing

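Of 712 values of the ligand genes under alternatives, 589 kept their direction and their side of the threshold, 44 lost a call, 27 gained one and 52 changed sign; where no cause is given, the cause was not tested. Tnfsf10 stayed above 0 throughout and stayed called in KO 1, in KO 2 and between them under all 15 alternatives of those comparisons.

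Between KO-labelled and WT arrays 27 genes were called, with 15 to 57 when single arrays were left out. The count was 16 when KO 1B was dropped, 55 for KO 2B, 57 for WT 1B, 15 for WT 2A and 16 for WT 2B. With single arrays left out 0 to 1 ligand genes were called, and 0 were called for letters as a block, no variance trend and median centring. Gene counts were 113 with no random block, 16 for letters as a block, 52 for preparation means, 66 with array weights, 157 after quantile normalization (121 higher, 36 lower, against 24 and 3) and 14 after median centring. Without WT preparation 1, 12 genes and 0 ligand genes were called, and without WT preparation 2, limma called 0 genes and 0 ligand genes, with 200 genes at an unadjusted p under 0.05. Without KO preparation 1, 1465 genes and 2 ligand genes were called, and without KO preparation 2, 16900 and 7. The correlation within preparations was then estimated at -0.63 and -0.64, which shrinks the SE; with no random block, an alternative chosen after seeing the data, 144 genes, and 13378 genes with 5 ligand genes, were called.

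Also chosen after seeing the data were array SD as a covariate, with 2488 genes and 5 ligand genes called (Tnfsf10 higher, and Tnf, Ltb, Tnfsf8 and Cd40lg lower) under a correlation of -0.367, which also shrinks the SE, and quantile normalization over tested genes, with 379 genes (248 higher, 131 lower) and 2 ligand genes called (Tnfsf10 higher and Ltb lower). In KO 2 that normalization called 2 ligand genes. Between KO 1 and KO 2, 12580 genes were called, with 4672 without KO 1A, 5296 without KO 2B and up to 14684 without other arrays, 4853 with 3 ligand genes after quantile normalization and 3710 when that ran over tested genes. Ligand genes called ranged from 1 to 5 between KO 1 and KO 2 and from 2 to 6 between KO 1 and WT when single arrays were left out.

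Signs changed in uncalled differences unless stated. For KO-labelled minus WT, array weights gave -0.0048 for Fasl and -0.030 for Tnf. Quantile normalization gave -0.29 for Tnf, -0.0028 for Tnfsf8 and -0.18 for Tnfsf11, and over tested genes -0.41, -0.053 and -0.28 in that order. Without KO preparation 1, with or without a random block, Fasl gave -0.0285, Tnf -0.36, Tnfsf8 -0.31 and Tnfsf14 -0.013. With array SD as a covariate Fasl gave -0.023, Tnf -0.42 (called), Tnfsf8 -0.38 (called) and Tnfsf14 -0.0071. Without WT preparation 1 Tnfsf11 gave -0.00044, and without WT preparation 2 Tnf gave -0.064. Leaving out single arrays, Tnf ran from -0.13 to 0.13 and Tnfsf8 from -0.13 to 0.31. For KO 1 minus KO 2, quantile normalization gave -0.15 for Ltb and 0.025 for Tnfsf4, and over tested genes -0.41 for Ltb (called), 0.041 for Tnfsf4 and -0.0062 for Tnf, which had been called. Median centring gave 0.082 for Tnfsf4 and 0.26 for Tnfsf11, and Tnfsf11 ran from -0.091 to 0.0499 without single arrays. For KO 1 minus WT, quantile normalization gave -0.16 for Tnf, -0.41 for Tnfsf11 (called) and 0.027 for Cd40lg, and over tested genes -0.41 (called), -0.60 (called) and 0.035. Median centring gave 0.19 for Ltb and 0.0099 for Tnfsf4, which had been called, and Ltb ran from -0.15 to 0.097 without single arrays. For KO 2 minus WT, without single arrays Fasl ran from -0.083 to 0.026, Lta from -0.23 to 0.13, Tnfsf14 from -0.053 to 0.026 and Tnfsf4 from -0.11 to 0.039.

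The preparation numbers were tried as a replicate block: 677 genes and 1 ligand gene, Tnfsf10 (adjusted p = 0.00207), were called, and with number and letter as a replicate block 113 genes and Tnfsf10 (adjusted p = 0.0145). Deviations of KO-labelled and WT arrays with the same number and letter correlated at -0.691, 0.771, -0.42 and 0.682. Pairs with the same number and unlike letters gave 0.759, -0.706, 0.647 and -0.398. Pairs with unlike numbers gave values as large, such as -0.774 for KO 2B with WT 1B and 0.709 for KO 2A with WT 1A. Whether same-numbered arrays share more than a number therefore cannot be told from these correlations. KO 1A and KO 1B correlated at 0.995 and KO 2A and KO 2B at 0.993, but WT 1A and WT 1B at 0.962. WT 1A correlated best with WT 2B, at 0.991, and WT 1B with WT 2A, at 0.989. The random block of the main fit thus treats as alike WT arrays that were not nearest to each other. Among the limits, Tnfsf4 and Cd40lg have mean levels under 6 log2 and drop out under the filter at 6, and a knock-out that is not seen in Bcl6 and a split in Y-linked genes apply to every comparison.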
